A study of Saccharomyces cerevisiae with 4 samples.

Results

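The sulfate assimilation pathway of the budding yeast Saccharomyces cerevisiae was examined through 10 genes chosen by name: SUL1, SUL2, MET3, MET14, MET16, MET22, MET5, MET10, MET1 and MET8. They cover the uptake of sulfate and its reduction to sulfide, and they are 10 of the 5539 genes that the array's annotation names. Each was printed as a pair of spots, which gave 20 spots of 11138 named ones, and all 10 had values on enough arrays to be tested. RNA of cells given Congo red, a dye that binds wall polysaccharides and disturbs wall assembly, was set against RNA of untreated cells on 4 arrays of 2 channels each. The treated cells were BY4741 in YEPD medium with Congo red at 30 µg/ml for 2 h at 24 °C, and the untreated cells were the other part of the same divided BY4741 culture, kept under those conditions without the dye. BY4741, a haploid MATa laboratory strain, carries deletions in HIS3, LEU2, URA3 and MET17, so both RNAs of an array came from cells with these deletions.

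Yeast takes up sulfate through permeases of the plasma membrane and activates it with ATP in a pair of steps, first to adenosine phosphosulfate (APS) and then to phosphoadenosine phosphosulfate (PAPS). PAPS is reduced to sulfite, and sulfite is reduced to sulfide by an enzyme that carries the iron-containing cofactor sirohaem. Sulfide is then joined to a carbon chain to give homocysteine, from which methionine, cysteine and S-adenosylmethionine are made. The joining enzyme is the product of MET17, so BY4741 makes sulfide but lacks the main route for using it and depends on methionine from the medium. Many genes of the pathway are switched on by the activator Met4 with its partners Cbf1, Met28, Met31 and Met32 when the cell is short of sulfur amino acids.

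The values are log2 ratios after the median of each array was set to 0, and a positive one is taken as higher with Congo red than without. The labels give the channel of each RNA but no direction of the ratio, and the direction is likely but not settled. Between arrays of opposite channel assignment the mean Pearson correlation over 5124 genes was -0.04, which lies between the limits of -0.3 and 0.3 that would settle it. Between arrays of the same assignment the mean was 0.21, with 0.33 for arrays 1 and 3 and 0.10 for arrays 2 and 4. Over all genes, arrays thus resembled each other only within an assignment, and the means below join both assignments. The 7 tested genes of 8 Slt2-Rlm1 markers, the wall stress route that Congo red is known to switch on, had means from 1.37 to 3.04. They were above 0 on all 4 arrays, where 9.54% of all genes valued on 4 arrays were, and so under both channel assignments. These markers were chosen with earlier results of these data known, so their sign is not independent support for the direction. With the sign of arrays 2 and 4 turned, the markers would be below 0 on those arrays. Blank cells made up 1.67% to 9.30% of the 12800 spots of an array, and no spot of the 10 genes lay at the upper limit of the values. No spot was set against its background here. Whether the arrays stand for separate cultures is not stated in the labels, so the p-values below cover the spread between 4 arrays, which may be technical spread alone, and the number of arrays limits the precision.

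MET14, MET3 and MET16, the genes of the steps from sulfate to sulfite, were above 0 on each of the 4 arrays, by about 1.6-fold to 1.8-fold in the mean. The other 7 genes were not above 0 on every array: MET22, MET10 and MET8 had means within 0.15 of 0, MET5 was at 0.24 in the mean with array 3 below 0, and SUL1, SUL2 and MET1 scattered between arrays. None of the 10 genes passed the limma threshold of 0.05 after Benjamini-Hochberg adjustment over the 5489 genes tested, where 0.0911% of all genes passed, and all of those were higher. At an unadjusted limma p under 0.05, 3 of 10 were higher and 0 of 10 were lower, where 5.37% of all genes tested were higher and 2.37% lower. With a value on all 4 arrays, 3 of 9 genes were above 0 on every array, where 9.54% of all genes were, and 0 of 9 were below 0 on every array, where 8.65% of all genes were.

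MET14 (YKL001C) encodes APS kinase, which turns APS into PAPS. Its log2 ratio was 0.87, 1.24, 0.52 and 0.81 on arrays 1 to 4. Every array was above 0, with array 2 the highest and array 3 the lowest. The mean was 0.86 ± 0.17 (moderated SE, n = 4), which is 1.815-fold with a 95% interval of 1.34-fold to 2.46-fold (limma adjusted p = 0.33). Its spots differed from each other by at most 0.17 on any array. By mean ratio, 5.59% of the genes tested stood higher.

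MET3 (YJR010W) encodes ATP sulfurylase, which makes APS from sulfate and ATP and is the entry step of the pathway inside the cell. Its log2 ratio was 0.87, 0.45, 0.88 and 0.35 on arrays 1 to 4. Arrays 1 and 3, with the Congo red RNA in channel 2, were nearly equal and stood above arrays 2 and 4. The mean was 0.64 ± 0.17 (moderated SE, n = 4), or 1.56-fold with a 95% interval of 1.16-fold to 2.09-fold (limma adjusted p = 0.52). The spots of MET3 lay 0.69 apart on array 2 and at most 0.20 apart on the other arrays.

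MET16 (YPR167C) encodes PAPS reductase, which draws electrons from thioredoxin to release sulfite. Its log2 ratio was 0.47, 0.91, 0.11 and 1.08 on arrays 1 to 4. Here arrays 2 and 4 stood above arrays 1 and 3, the reverse of MET3, and array 3 was close to 0. The mean was 0.64 ± 0.21 (moderated SE, n = 4), or 1.56-fold with a 95% interval of 1.07-fold to 2.28-fold (limma adjusted p = 0.61). The spots were 0.72 apart on array 2, and on array 3 they lay on either side of 0.

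MET22 (YOL064C) encodes a phosphatase that clears PAP, the by-product that PAPS reduction leaves. Its log2 ratio was -0.03, -0.08, 0.12 and 0.21 on arrays 1 to 4, which straddles 0. The mean was 0.05 ± 0.14 (moderated SE, n = 4), and the 95% interval ran from 0.82-fold to 1.32-fold (limma adjusted p = 0.92). The spread of MET22 over the arrays was small, with 5.54% of the genes tested having a smaller SD.

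**Figure D1:**
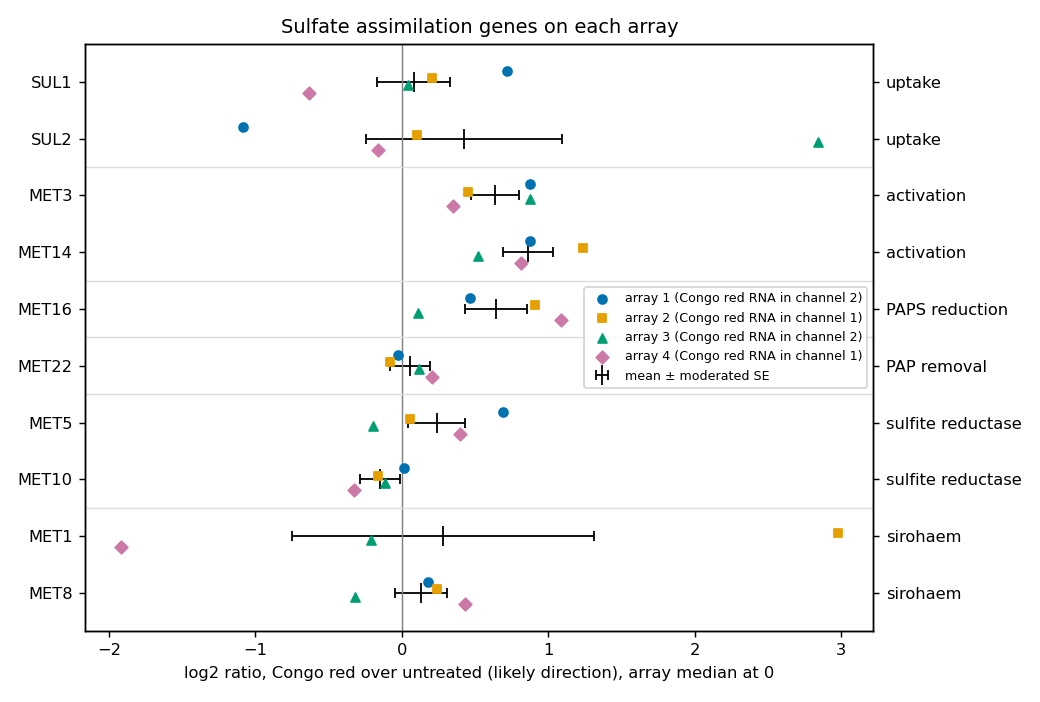
Log2 ratio of Congo red over untreated RNA (likely direction, array median at 0) for each of the 10 genes in pathway order, with 1 point per array and the mean ± moderated SE in black. MET3, MET14 and MET16 have all points right of 0, and the points of SUL2 and MET1 spread from -1.08 to 2.84 and from -1.92 to 2.98.

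Sulfite reductase is built of an alpha subunit, encoded by MET10 (YFR030W), and a beta subunit, encoded by MET5 (YJR137C). MET10 had log2 ratios of 0.01, -0.16, -0.11 and -0.33 on arrays 1 to 4 and a mean of -0.15 ± 0.14 (moderated SE, n = 4, limma adjusted p = 0.78). It was the only gene of the 10 with a mean below 0, and its 95% interval was 0.71-fold to 1.15-fold. MET5 had log2 ratios of 0.69, 0.05, -0.20 and 0.40 and a mean of 0.24 ± 0.20 (moderated SE, n = 4, limma adjusted p = 0.76). Its interval, 0.83-fold to 1.67-fold, includes both no change and the means of MET3 and MET16. Spots of MET5 and MET10 lay at most 0.24 apart, so the differences of MET5 between arrays were larger than those between its spots.

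Sirohaem is made from a tetrapyrrole by Met1, which methylates it, and Met8, which oxidises it and inserts the iron. MET8 (YBR213W) had log2 ratios of 0.18, 0.24, -0.32 and 0.43 on arrays 1 to 4, with array 3 alone below 0. Its mean was 0.13 ± 0.18 (moderated SE, n = 4, limma adjusted p = 0.85), with a 95% interval of 0.80-fold to 1.501-fold. MET1 (YKR069W) had no value on array 1 and log2 ratios of 2.98, -0.21 and -1.92 on arrays 2, 3 and 4. Only 4 of its 8 spot values were present, and on array 4 the spots were 1.73 apart. The mean of 0.28 ± 1.03 (moderated SE, n = 3, limma adjusted p = 0.95) leaves a 95% interval of 0.17-fold to 8.88-fold, so at this precision neither a rise nor a fall of MET1 was detectable.

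SUL1 (YBR294W) and SUL2 (YLR092W) encode the high-affinity sulfate permeases, which are close relatives, and signal shared between their spots could blur both. SUL1 had log2 ratios of 0.72, 0.21, 0.04 and -0.64 on arrays 1 to 4, with a mean of 0.08 ± 0.25 (moderated SE, n = 4, limma adjusted p = 0.94). Array 4 alone was below 0, with both of its spots there, at -0.69 and -0.58. SUL2 had log2 ratios of -1.08, 0.10, 2.84 and -0.16 and a mean of 0.42 ± 0.67 (moderated SE, n = 4, limma adjusted p = 0.87). This mean rests on array 3, where the spots stood at 1.75 and 3.92, and without that array it was -0.38. Arrays 1 and 4 each had a value for 1 spot of SUL2 only.

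**Figure D2:**
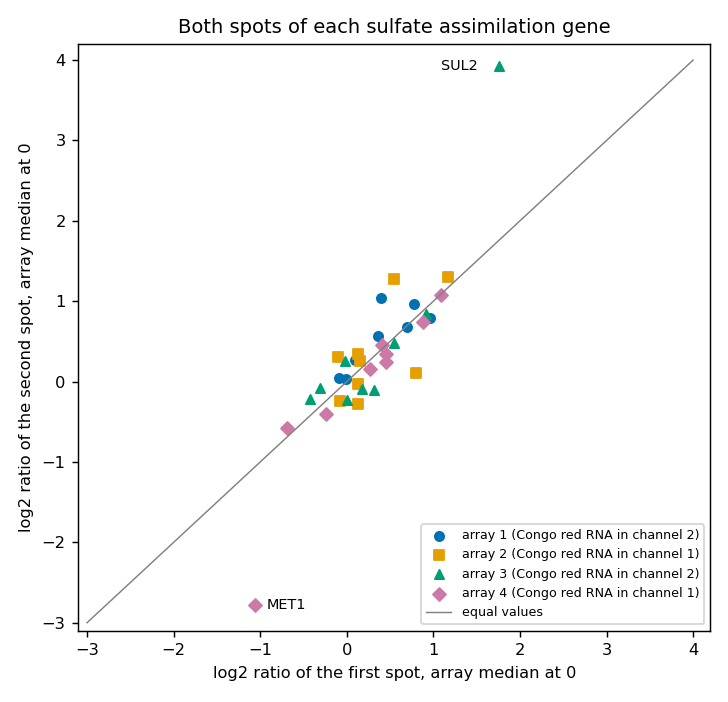
Log2 ratio of the second against the first spot of each of the 10 genes, with 1 point per gene and array where both spots had a value, and the line of equal values. Most points lie near the line, and the widest gaps are SUL2 on array 3 (2.17) and MET1 on array 4 (1.73).

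Agreement between spots bears on how far these values can be read. Over all genes printed as a pair of spots, the median gap was 0.16, 0.25, 0.16 and 0.15 on arrays 1 to 4, and 9.55%, 18.0%, 8.85% and 5.95% of pairs were more than 1 apart. Of the 10 genes, SUL2 and MET1 had such a pair and missing spots as well. The SD over arrays was also wide for both: 93.9% of the genes tested had a smaller SD than SUL2, and 98.4% a smaller one than MET1. The other 8 genes had all 8 spot values each and no pair more than 1 apart.

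The 10 genes as a list had a median of 0.26, against -0.01 for all genes tested, and 9 of 10 means were above 0, against 48% of all genes. Both rest on the likely direction: with the sign of arrays 2 and 4 turned, 5 of 10 means were above 0, against 53.1% of all genes, and the list median was 0.00019. Without spot pairs more than 1 apart, which leaves 9 genes, the list median was 0.13, and 7 of 9 means were above 0, against 47.1% of all genes. With array 1, 2 or 3 left out, 8 of 10 means were above 0. Without array 4, 9 of 10 were, and the list median was 0.41. Array medians of the list were 0.47, 0.22, 0.07 and 0.28, all above 0. Within the pathway the median of MET3, MET14 and MET16 was 0.87, 0.91, 0.52 and 0.81 on arrays 1 to 4. The median of the genes of sulfite reductase and sirohaem, MET5, MET10, MET1 and MET8, was 0.18, 0.15, -0.21 and 0.04. On array 1 this median leaves out MET1, which had no value there. The difference between these medians was 0.69, 0.77, 0.72 and 0.77, so it varied less between arrays than either median did. The differences between single genes given below varied more than that. The division into these groups was made with the values known, and the difference of the medians is given with no test.

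Single genes were also set side by side within each array, as values with no test, since the pairs were chosen with the values known and MET10 has the lowest mean of the 10. MET14 minus MET10 was 0.86, 1.40, 0.63 and 1.14 on arrays 1 to 4, and MET3 minus MET10 was 0.86, 0.61, 0.99 and 0.67. MET16 minus MET10 was above 0 on all arrays too, from 0.22 to 1.41. Against MET22, MET14 and MET3 were higher on all arrays, by 0.40 to 1.32 and by 0.14 to 0.90, while MET16 minus MET22 was -0.010 on array 3 and from 0.49 to 0.99 on the others. MET5 was less clearly apart: MET14 minus MET5 was above 0 on 4 arrays, but MET3 minus MET5 was -0.05 on array 4 and MET16 minus MET5 was -0.23 on array 1.

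**Figure D3:**
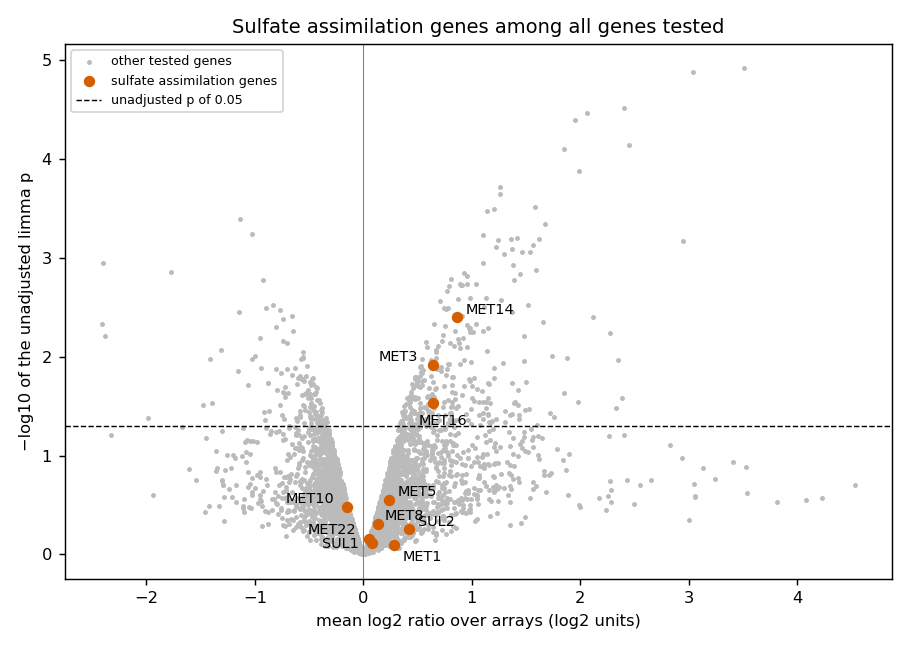
Mean log2 ratio (x axis) against the −log10 of the unadjusted limma p (y axis) for all 5489 genes tested, with the 10 genes in orange and a dashed line at an unadjusted p of 0.05. MET14, MET3 and MET16 lie above the line, and the other 7 genes lie below it.

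Channel assignment was examined because RNA and channel were exchanged between arrays. In arrays 1 and 3, where the Congo red RNA was in channel 2, MET14 averaged 0.69, against 1.03 in arrays 2 and 4. MET3 averaged 0.87 in arrays 1 and 3 and 0.40 in arrays 2 and 4, while MET16 averaged 0.29 in arrays 1 and 3 and 1.00 in arrays 2 and 4. Thus all 3 genes were above 0 under both assignments. Tested with a channel term in limma, the difference (channel 2 minus channel 1) was 0.48 for MET3 (adjusted p = 0.34), -0.71 for MET16 (adjusted p = 0.30) and -0.33 for MET14 (adjusted p = 0.54). The unadjusted limma p of this difference was 0.082 for MET3, 0.049 for MET16 and 0.31 for MET14. MET16 was thus under 0.05 unadjusted for the channel difference as well. If the deposited ratios ran by channel instead, the sign of arrays 2 and 4 would turn, and the means would be 0.24 for MET3, -0.17 for MET14 and -0.36 for MET16, with no limma adjusted p below 0.61 for these genes. The 7 tested Slt2-Rlm1 markers, above 0 as deposited, would then be below 0 on arrays 2 and 4.

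Genes that use sulfide and make methionine, cysteine and S-adenosylmethionine lay on both sides of 0. The median of the 16 genes of this list was -0.04, with 6 means above 0 and 10 below, and none passed the limma threshold. At an unadjusted limma p under 0.05, 1 of 16 was higher and 1 of 16 lower, where 5.37% of all genes tested were higher and 2.37% lower. Chosen here with the values known, the highest means were those of STR3, a cystathionine beta-lyase, at 0.92 ± 0.93, and MET7, which adds glutamate to folates, at 0.50 ± 0.35 (moderated SE, n = 4 each). STR3 stood at 4.37 on array 3 and was below 0 on array 2, and MET7 at 1.69 on array 1 and -0.33 on array 4, so neither held 1 sign on all arrays. SAM1, an S-adenosylmethionine synthetase, had log2 ratios of -0.76, -0.46, -0.73 and -0.24 on arrays 1 to 4, all below 0, and a mean of -0.55 ± 0.16 (moderated SE, n = 4, limma adjusted p = 0.56). Its nearly identical relative SAM2, singled out after its values were seen, was at -0.28 ± 0.14, also below 0 on all arrays, and each may pick up signal of the other. STR2, which encodes cystathionine gamma-synthase, of the route from cysteine to homocysteine, was at 0.35, 0.44, 0.29 and 0.26, with a mean of 0.33 ± 0.13 (moderated SE, n = 4, limma adjusted p = 0.64). Its 4 arrays were all above 0 and close together.

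MET17 is deleted in both RNAs of each array, so its ratio reflects no transcript of an intact gene. Its log2 ratio was 0.59, -0.58, -0.03 and -0.52 on arrays 1 to 4, with a mean of -0.13 ± 0.25 (moderated SE, n = 4). These values, up to 0.59 from 0, are those of 1 gene that the strain lacks and set no limit for others. URA3, given below, is also deleted and stood farther from 0. HIS3, which also carries a deletion, was below 0 on all arrays, at -1.01, -0.0011, -0.61 and -0.36, with a mean of -0.50 ± 0.21 (moderated SE, n = 4). Whether part of HIS3 remains to give signal was not examined, so its values are not read as those of an absent gene. LEU2 was at -0.24 ± 0.14 (moderated SE, n = 4), and URA3 had values on 2 arrays only, 1.46 and -1.29 on arrays 3 and 4. HSU1 (YLL058W), singled out after its values were seen, encodes an enzyme known to use sulfide in cells without MET17, and it was at -0.13 ± 0.13 (moderated SE, n = 4, limma adjusted p = 0.79).

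The regulators of the pathway lay near 0 as a list, with a median of -0.06 over 6 tested of 7, and none passed the limma threshold or an unadjusted p under 0.05. Over all genes tested, 5.37% were higher and 2.37% lower at that unadjusted limma p, so none of 6 is little to go by. MET4, the activator, had log2 ratios of 0.20, 0.53, 0.06 and 0.54 on arrays 1 to 4, all above 0, and a mean of 0.33 ± 0.16 (moderated SE, n = 4, limma adjusted p = 0.68). GCN4, the activator of amino acid synthesis at large, was below 0 on all arrays, at -0.72, -0.02, -0.40 and -0.03, with a mean of -0.29 ± 0.18 (adjusted p = 0.72). MET28 had values on 2 arrays only, 1.26 and -0.04 on arrays 3 and 4, and was not tested.

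Genes for the uptake and use of other sulfur sources had a median of -0.30 over 12 tested, with 3 means above 0 and 9 below. None passed the limma threshold, and at an unadjusted limma p under 0.05, 0 of 12 were higher and 2 of 12 lower, where 5.37% of all genes tested were higher and 2.37% lower. Of the 9 with values on all arrays, 5 were below 0 on all 4, where 8.65% of all genes were. These were SAM3, MHT1, SAM4, JLP1 and HSU1, of which HSU1 was close to 0 on arrays 1 and 4, at -0.04 and -0.016. MHT1, a methyltransferase that turns S-methylmethionine and homocysteine into methionine, had log2 ratios of -0.45, -0.45, -0.83 and -0.28 on arrays 1 to 4 and a mean of -0.50 ± 0.16 (moderated SE, n = 4, limma adjusted p = 0.59). BDS1, a sulfatase, was at -2.66, -0.18 and -3.11 on arrays 1, 3 and 4, which is a wide spread around a mean of -1.98 ± 0.67 (moderated SE, n = 3, limma adjusted p = 0.63).

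Thioredoxins, the electron donors of PAPS reductase, split by channel assignment. TRX1 had log2 ratios of -0.63 and -0.53 on arrays 1 and 3, and 0.94 and 0.73 on arrays 2 and 4. TRX2, singled out after its values were seen, was at -0.55 and -0.30 on arrays 1 and 3, and 0.50 and 0.68 on arrays 2 and 4. With a channel term in limma the difference (channel 2 minus channel 1) was -1.41 for TRX1 and -1.02 for TRX2, each with an adjusted p = 0.25. Their means over the arrays, 0.13 ± 0.34 and 0.08 ± 0.26 (moderated SE, n = 4), therefore join values of opposite sign. These genes are close relatives, and each may pick up signal of the other. TRR1, thioredoxin reductase, did not split in this way, at -0.44, -0.34, -0.28 and 0.12 on arrays 1 to 4 and a mean of -0.23 ± 0.16 (limma adjusted p = 0.74).

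**Figure D4:**
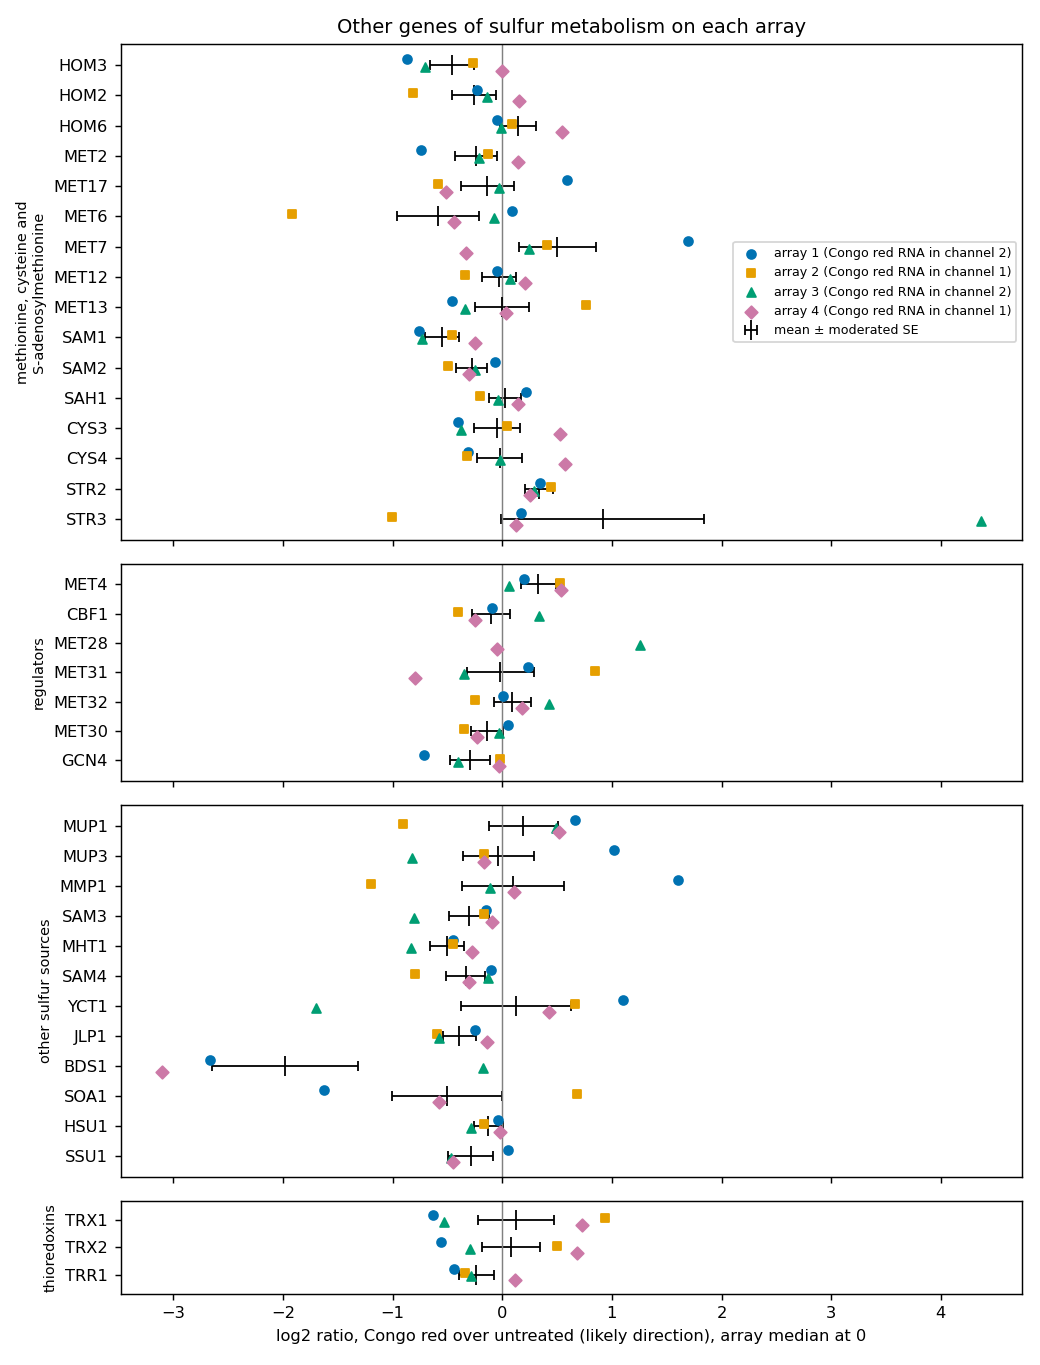
Log2 ratio of Congo red over untreated RNA (likely direction, array median at 0) for the 38 other genes of sulfur metabolism in 4 lists, with 1 point per array and the mean ± moderated SE in black where a gene was tested. SAM1, SAM2 and MHT1 have all points left of 0 and STR2 all right of 0, while TRX1 and TRX2 divide by channel assignment.

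Together the 38 other genes of sulfur metabolism gave 37 tested genes with a median of -0.10, and 13 means were above 0 and 24 below. In limma 0 of 37 passed the threshold, and at an unadjusted p under 0.05, 1 of 37 was higher and 3 of 37 were lower, where 5.37% of all genes tested were higher and 2.37% lower. The genes whose values over the 4 arrays lay nearest to the median of the 10 pathway genes, by root mean square difference among 5115 genes, were TPH3 (0.05), MEP3 (0.05) and CIS1 (0.06).

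The means of MET3, MET14 and MET16 kept their sign above 0 in each alternative of scaling, centring, filter and spot, and with any 1 array left out. Over those alternatives and the turned sign, MET14 ran from -0.17 to 0.98, MET16 from -0.36 to 0.86 and MET3 from 0.24 to 0.73, and the turned sign gave the lowest value of each. The count of 3 genes at an unadjusted limma p under 0.05 was 1, MET14, with uncentred arrays and also without array 1. It was 2, MET3 and MET14, with quantile normalization, without array 2 and without array 4, and 2, MET14 and MET16, without array 3. It was 0 when the test asked for a change beyond 1.5-fold. Over all genes, in either direction, 425 of 5489 had such a p as reported and 72 of 5489 in the 1.5-fold test. With uncentred arrays 314 of 5489 had it, and without array 1 232 of 5519.

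**Figure D5:**
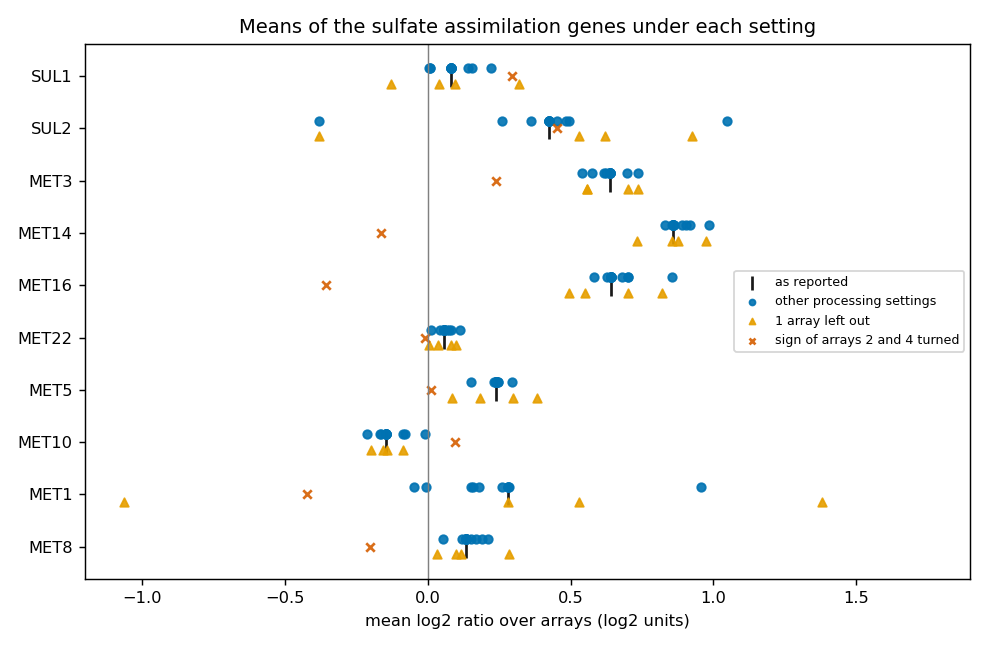
Mean log2 ratio of each of the 10 genes as reported (black bar), under other processing settings (circles), with 1 array left out (triangles) and with the sign of arrays 2 and 4 turned (crosses). The points of MET3, MET14 and MET16 stay right of 0 apart from the crosses of MET14 and MET16, and those of SUL2 and MET1 lie on both sides of 0.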

How the data were processed

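Each of 4 arrays held Congo red-treated and untreated RNA. The authors deposited 1 log2 ratio per spot and array, a unit inferred from signed values whose highest is the log2 of 1e+05. Which dyes, background correction, within-array normalization and direction the authors used is not given in the sources used here. Their values were not centred, with medians of 0.31, 0.02, -0.46 and 0.37 on arrays 1 to 4.

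Spots were named through the platform's old annotation: 11138 of 12800 had 1 symbol, 0 several and 1662 none. Of the named spots 11128 were found in the RefSeq table of assembly R64. No build is named for the array, so no coordinates are given.

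Arrays were centred on their medians and spots averaged per gene. A gene entered the test if at least 3 arrays gave it a value. The test was made in R 4.3.3 by limma 3.58.1 (lmFit and eBayes, mean log2 ratio against 0, two-sided, Benjamini-Hochberg, 0.05), and the script was tested on simulated data. Intervals are limma's 95% intervals, not adjusted. The 10 genes and the lists were chosen with earlier results of these data known. Named by rule beside the 10 genes were the 2 of each other list with the smallest p, MET17 and the 3 nearest profiles. Other genes whose values are given, among them MET28, HIS3, LEU2, URA3 and SPC1, fell outside this rule and were named with their values known. Gene groups were described by counts and medians, with no set test. Alternatives were centring, scaling, quantile normalization, runs of 400 spot numbers, a channel term, pair averages, other filters, single spots, robust eBayes, a fold change of 1.5, the turned sign and each array left out. A planned count of promoter motifs was not run.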

Additional observations from a re-analysis of the deposited data

How the results depend on the processing

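None of the 10 genes and none of the other sulfur genes passed the limma threshold in any alternative in which they were counted (the other sulfur genes were not counted on single spots), where 3 of the 10 had an unadjusted p under 0.05 as reported. That count was 1 with uncentred arrays, 0 in the test against a fold change of 1.5, 0 with the sign of arrays 2 and 4 turned, 2 with quantile normalization, and from 1 to 2 with 1 array left out, the 1 being without array 1. Over all genes, in either direction, 425 of 5489 had such a p as reported. This was 314 with uncentred arrays, 72 in the fold change test and 671 with the turned sign. It was 424 with quantile normalization and from 232 to 482 with 1 array left out. The list median stayed between 0.20 and 0.41 with 1 array left out (highest without array 4), was 0.13 without spot pairs over 1 apart and was 0.00019 with the turned sign. Over all genes, the 5 higher calls became 0 with arrays scaled to a common spread, quantile normalization, runs of 400 spot numbers, the channel term, pair averages, the fold change test and the turned sign, 0 with any array left out, and 11 without spot pairs over 1 apart. With the turned sign MET14 was -0.17, MET16 -0.36, MET22 -0.0099, MET10 0.10, MET1 -0.42, MET8 -0.20, STR2 -0.016, MET4 -0.20, BDS1 0.089 and TRX1 -0.71. MET1 was -0.049 with arrays scaled to a common spread and -0.0064 on the second spot alone, and ran from -1.07 to 1.38 with 1 array left out. SUL2 was -0.38 without spot pairs over 1 apart and ran from -0.38 to 0.93 with 1 array left out, SUL1 from -0.13 to 0.32 and TRX1 from -0.14 to 0.38. The cause of these changes was not tested. Each ratio already pairs treated and untreated RNA of 1 array, and no further replicate block was fitted. Depth cannot be judged, since signal over background was not used here.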

Other observations

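Genes next to the pathway genes on the chromosome were also examined. Of 18 neighbours tested, 0 passed the limma threshold, and 3 were higher and 0 lower at an unadjusted limma p under 0.05, where 5.37% of all genes were higher and 2.37% lower. The 5 tested neighbours of MET3, MET14 and MET16 had means from -0.28 to 0.75, and 0 of 5 had an unadjusted limma p under 0.05. Beside these same shares of all genes, a count of 0 in a list this short says little. The highest of these was SPC1, of the signal peptidase complex and next to MET3, with log2 ratios of 1.40, 1.17, -0.11 and 0.53 on arrays 1 to 4 and a mean of 0.75 ± 0.29 (moderated SE, n = 4). It was below 0 on array 3, where MET3 was at 0.88.

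The 3 higher neighbours, named after their values were seen, lay beside other genes of the pathway. NYV1, a SNARE protein of the vacuole next to SUL2, was at 0.90, 0.61, 0.88 and 0.60 on arrays 1 to 4, with a mean of 0.75 ± 0.14 (moderated SE, n = 4, limma adjusted p = 0.31). SUL2 itself stood at -1.08 on array 1, so the neighbours did not move together there. PTR3, of the amino acid sensor of the plasma membrane and next to MET10, was at 0.60 ± 0.21 (moderated SE, n = 4, limma adjusted p = 0.63). SDS24, next to MET8, was at 1.28, 2.27 and 2.79 on arrays 1 to 3 and had no value on array 4, with a mean of 2.11 ± 0.35 (moderated SE, n = 3, limma adjusted p = 0.33).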
